A study of Homo sapiens with 32 samples.

Results

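LNCaP, an androgen-dependent line grown from prostate cancer in a lymph node, was compared between 4 hours of a HER-family ligand and full serum. The 12 libraries were chosen by their labels from the 32 of the series: 4 of cells given 100 ng/mL EGF for 4 hours, 4 of cells given 100 ng/mL NRG-1 for 4 hours, and 4 of cells in fetal bovine serum (FBS) with no added ligand. The ligand-treated cells had been changed the day before to medium with charcoal- and dextran-treated serum (CSS), which holds few steroids, thyroid hormones, and other lipophilic molecules, whereas the labels do not say whether the FBS cells had a medium change. All groups used the same line and basal medium, and the labels name no genetic change in any of them. The 8 ligand libraries were pooled as the mean of both ligand groups and tested directly against the 4 FBS libraries, with the batch as a term. This difference therefore holds the serum, the ligand, and any difference in medium change together. The 4 libraries of cells in CSS without ligand are given beside it. Cells of 1 line were used, so that the libraries are repeats of 1 genetic background, and groups of 4 held 2 libraries from each of 2 batches.

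EGF binds EGFR, and NRG-1 binds HER3 and HER4. Each occupied receptor can pair with HER2 (encoded by *ERBB2*) and signals through RAS to the kinase ERK and through PI3K to the kinase AKT. ERK drives immediate early transcription factors, followed by phosphatases and adaptors that restrain the same pathway, while AKT holds FOXO transcription factors out of the nucleus. Serum carries androgens, steroids that in prostate luminal cells drive the transcription of secreted proteases such as PSA, the product of *KLK3*, as well as lipids and growth factors that sustain division.

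The promoters of 3 genes at the ends of the comparison are shown as the 250 bases before the start of the gene, 5′ to 3′ on the strand of the gene, from RefSeq on GRCh38.p14. *MMP10* is shown for the ligands, and the adjacent paralogs *KLK3* and *KLK2* for serum. Capitals mark a match to the AP-1 motif TGANTCA, bound by FOS and JUN dimers, or to the androgen response half-site AGAACA, both searched on both strands.
*MMP10* (chr11:102780629-102780878, minus strand): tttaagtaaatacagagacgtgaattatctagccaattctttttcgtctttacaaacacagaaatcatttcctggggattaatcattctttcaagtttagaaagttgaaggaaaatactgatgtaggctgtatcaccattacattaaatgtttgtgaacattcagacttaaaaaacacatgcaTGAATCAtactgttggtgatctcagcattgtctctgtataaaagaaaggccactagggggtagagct
*KLK3* (chr19:50854665-50854914, plus strand): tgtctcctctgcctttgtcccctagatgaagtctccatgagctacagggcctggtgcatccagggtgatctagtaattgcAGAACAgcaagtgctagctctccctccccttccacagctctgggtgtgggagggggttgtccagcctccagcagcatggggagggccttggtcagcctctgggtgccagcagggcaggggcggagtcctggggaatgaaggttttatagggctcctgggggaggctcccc
*KLK2* (chr19:50873189-50873438, plus strand): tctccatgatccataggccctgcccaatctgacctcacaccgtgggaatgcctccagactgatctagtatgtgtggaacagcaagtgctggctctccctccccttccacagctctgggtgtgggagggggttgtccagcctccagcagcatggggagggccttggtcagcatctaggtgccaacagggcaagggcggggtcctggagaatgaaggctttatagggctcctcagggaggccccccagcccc
The *MMP10* window held 1 AP-1 match, TGAATCA, 67 to 61 bases before the start, and AP-1 matches occurred in 6.57% of 35116 promoter windows of the same length. The *KLK3* window held 1 half-site match, 170 to 165 bases before the start, and the half-site occurred in 12.4% of the windows. No exact match to either motif was found in these letters of *KLK2*, and near matches to the half-site were not searched. The 2 motifs did not overlap. A match is a description of sequence only.

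The 12 libraries held 63822654 to 92397749 expected counts each (median 74037549), and 16995 genes passed the filter on low counts. Levels are given as CPM, that is counts per 1000000 of the TMM-scaled library total, and they are compared between libraries, not between genes. The principal component with the largest share held 64.2% of the variance of the 12 libraries and separated FBS from both ligands, and the next held 10.1% and separated the batches. Luminal markers summed to 6286 to 7168 CPM in FBS, 6701 to 7224 CPM with EGF, and 6359 to 7247 CPM with NRG-1, with all 9 of them tested. These similar sums hide opposite changes, with *KLK3* lower and *KRT8*, *KRT18*, and *FOLH1* higher with ligand, as given below. Basal markers summed to at most 1.88 CPM in FBS and 0.342 CPM with ligand, and *KRT5*, *TP63*, and *KRT17* did not pass the filter. The fibroblast list summed to 6.57 to 10.7 CPM in FBS, 12.3 to 16.4 CPM in CSS, and 12.5 to 16.6 CPM with ligand, with *COL1A2*, *DCN*, and *FAP* not passing the filter. The immune and endothelial list summed to 10.9 to 12.5 CPM in FBS and 12.4 to 16.9 CPM in CSS. With EGF it summed to 18.6 to 20.8 CPM and with NRG-1 to 13.4 to 15.7 CPM, and *CD3E*, *PECAM1*, and *CDH5* were among those not passing the filter. The part of these 2 lists in the results below was not tested.

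A differentially expressed gene (DEG) had a Benjamini-Hochberg adjusted P value below 0.05 in edgeR's quasi-likelihood test and a log2 fold change above 1 or below -1, the thresholds of the study. Between the ligands and FBS, 2669 of 16995 genes (15.7%) were DEGs, 1354 higher with the ligands (7.97%) and 1315 lower (7.74%). Within batch 1 alone the number was 2546, and within batch 2 alone it was 2345. Of the 2669, 2293 were called the same way in batch 1 alone and 2092 in batch 2 alone. The libraries of each batch also went into the choice of the 2669, so that these counts are not independent of it. The 8 ligand and 4 FBS libraries did not overlap for 1120 of the higher and 1029 of the lower DEGs, and over all genes 17.3% did not overlap with the ligands higher and 15.7% with the ligands lower. The 2 directions were near equal in number in this test, whereas limma on log2(TPM + 0.1) called 1073 higher and 718 lower. They were unlike in size, since 296 of the higher genes passed a log2 fold change of 3 and 86 of the lower ones passed -3. Among the lower DEGs, 511 had a mean in FBS of at least 10 CPM, and among the higher ones 434 had a ligand mean of at least 10 CPM. The median log2 fold change over all genes was -0.02. For comparison on the same scale, CSS without ligand differed from FBS in 1480 genes (8.71%, with 645 higher, 3.80%, and 835 lower, 4.91%), and the ligands differed from CSS in 1505 (8.86%, with 927 higher, 5.45%, and 578 lower, 3.40%). These comparisons share libraries with the main one and are given as values beside it.

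**Figure D1:**
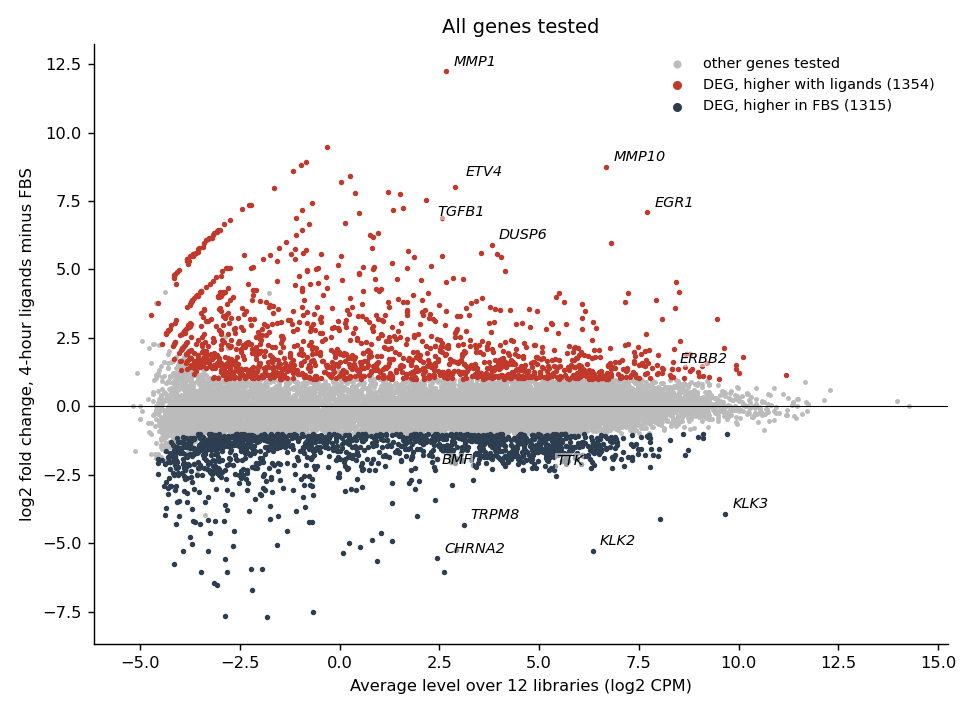
Each point is 1 of 16995 genes, with the average level over the 12 libraries on the x axis (log2 CPM) and the log2 fold change of the 4-hour ligands minus FBS on the y axis. The 1354 DEGs higher with the ligands are red, the 1315 higher in FBS are dark, and the other genes are grey. The higher DEGs reach further from 0, with *MMP10* at 8.76, than the lower ones at similar levels, with *KLK2* at -5.27.

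Genes that androgen activates were below FBS in most cases, and *KLK3* and *KLK2* lay far under their FBS levels in every ligand library. *KLK3*, whose product PSA is a secreted protease, read 2208, 2298, 1916 and 2156 CPM in FBS replicates 1 to 4 and 112 to 180.0 (median 144) CPM over the 8 ligand libraries. The groups did not overlap, and the fold was 15.1 (log2 fold change -3.92, SE 0.09, adjusted P = 9.70e-24). *KLK2*, its neighbour and paralog, read 247, 261, 195 and 223 CPM in FBS and 4.67 to 6.95 (median 5.99) CPM with ligand. Its fall was 38.7-fold (log2 fold change -5.27, SE 0.10, adjusted P = 1.67e-25). *TRPM8*, a cold-sensing cation channel, read 30.8, 29.5, 16.4 and 16.5 CPM in FBS, with both batch 1 libraries above both of batch 2, and 0.529 to 1.67 (median 1.34) CPM with ligand (log2 fold change -4.33, SE 0.10, adjusted P = 2.38e-24).

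Of the 40 androgen-response genes, 29 were DEGs lower with the ligands and 0 were higher, against 7.74% and 7.97% of all genes, and their median log2 fold change was -1.51. The libraries did not overlap for 36 of the 40 in the lower direction, against 15.7% of all genes. *CHRNA2*, a nicotinic acetylcholine receptor subunit, read 19.0, 16.5, 13.6 and 13.1 CPM in FBS and 0.201 to 0.626 (median 0.303) CPM with ligand, a fall of 47.1-fold. *SLC26A3*, an anion exchanger, held 78 counts over the FBS libraries and 1 count over all ligand libraries, so that it was 154-fold lower with a counting interval of 26.9 to 6176. *TMPRSS2*, a membrane protease, read 591, 508, 385 and 358 CPM in FBS and 58.7 to 163 (median 92.3) CPM with ligand (log2 fold change -2.23, SE 0.07, adjusted P = 1.00e-21). *FKBP5*, a chaperone of steroid receptors, stood apart from these. It read 242, 192, 203 and 178 CPM in FBS and 109 to 152 (median 145) CPM with ligand, a log2 fold change of -0.54 (adjusted P = 3.87e-07) that did not reach the fold limit, and its mean in CSS was 60.6 CPM, below both. The difference of the ligands from CSS was 1.20 for *FKBP5* (adjusted P = 5.12e-13).

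Beside these values, CSS without ligand held 25 DEGs lower than FBS among the 40 and 1 higher (4.91% and 3.80% of all genes), with a median of -1.22. The ligands against CSS held 4 lower and 2 higher (3.40% and 5.45% of all genes), with a median of -0.14. For *KLK3* and *KLK2*, the ligand means lay below CSS as well. *KLK3* averaged 219 ± 43.1 CPM in CSS (SD, n = 4), and the ligands differed from it by -0.59 on the log2 scale (adjusted P = 3.38e-06), under the fold limit and with overlap between the libraries. For *KLK2*, with 14.6 ± 2.53 CPM in CSS, the difference from CSS was -1.29 (adjusted P = 5.48e-12).

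**Figure D2:**
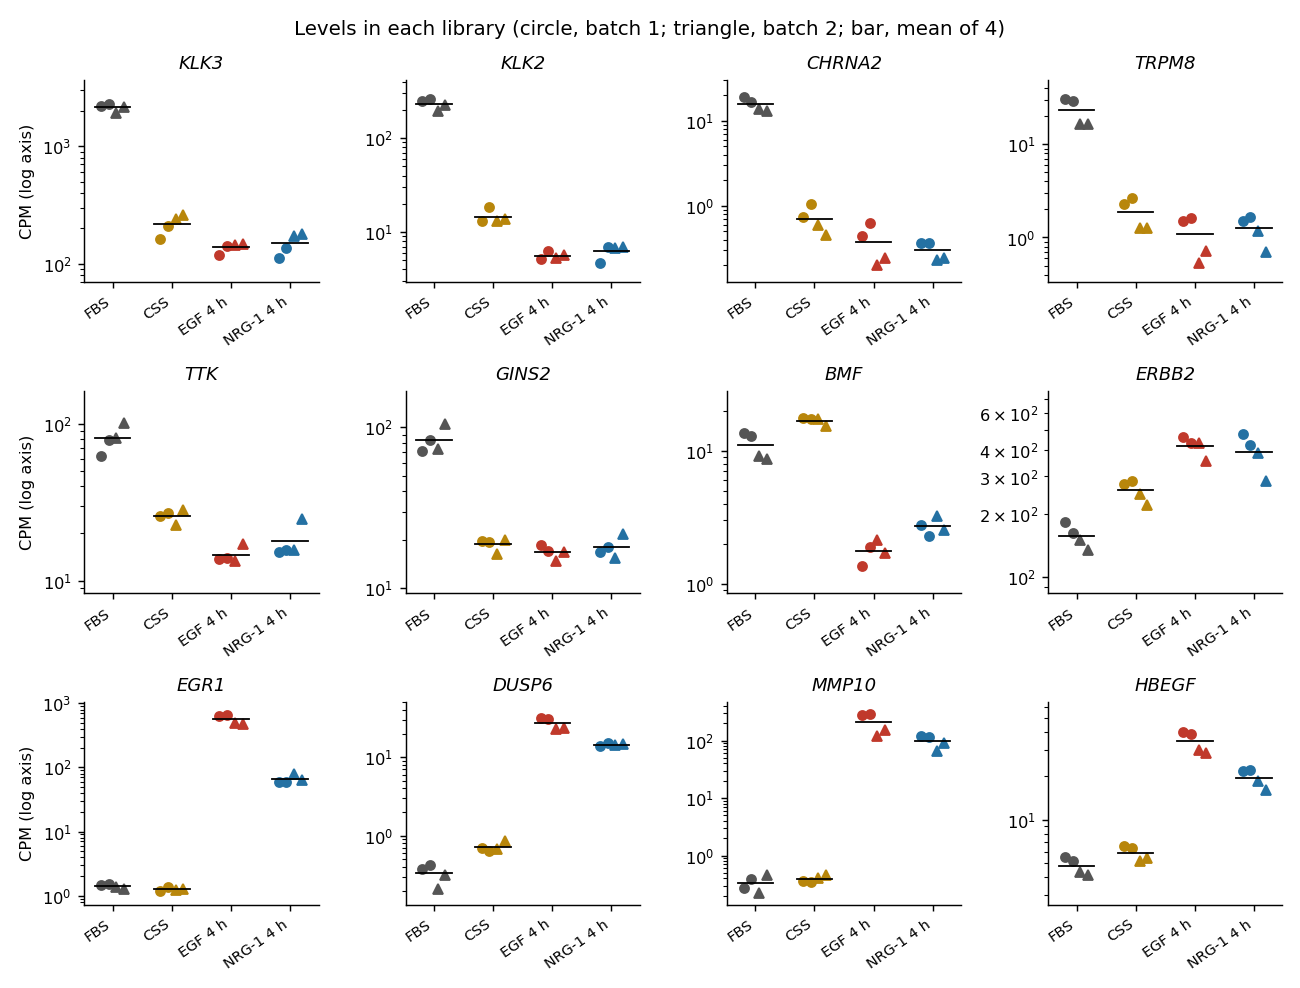
Levels of 12 genes in each library of FBS, CSS, EGF at 4 hours, and NRG-1 at 4 hours (CPM, log axis), with batch 1 as circles, batch 2 as triangles, and the mean of 4 as a bar. *KLK3*, *KLK2*, *CHRNA2*, *TRPM8*, *TTK*, and *GINS2* were high in FBS, *BMF* was high in FBS and CSS, and *EGR1*, *DUSP6*, *MMP10*, *HBEGF*, and *ERBB2* were highest with a ligand.

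Surface and enzyme genes that androgen is known to repress were called in both directions. At the adjusted P value alone, 11 of 16 were higher and 4 lower, against 32.3% of all genes in each direction. By the DEG thresholds, 3 were DEGs higher with the ligands and 1 was lower (7.97% and 7.74% of all genes), with a median of 0.45. *SLITRK3*, a neuronal membrane protein, read 29.0, 24.4, 21.5 and 16.2 CPM in FBS and 57.8 to 85.9 (median 75.0) CPM with ligand (log2 fold change 1.70, SE 0.08, adjusted P = 1.07e-17). *UGT2B15*, which conjugates androgens to glucuronic acid, read 55.7, 65.3, 73.4 and 81.9 CPM in FBS and 151 to 314 (median 204) CPM with ligand (log2 fold change 1.57, SE 0.09, adjusted P = 8.61e-15), and its CSS mean of 226 CPM was at the ligand level. The related *UGT2B28* changed the other way (log2 fold change -1.83, SE 0.18, adjusted P = 4.54e-10), and reads of this near-identical family may be divided uncertainly. *FOLH1*, which encodes PSMA, read 1347, 1382, 1313 and 1346 CPM in FBS and 1779 to 2015 (median 1871) CPM with ligand without reaching the fold limit (log2 fold change 0.47, adjusted P = 4.45e-10). Steroid-making enzymes held 1 DEG among 12 tested, a lower one, near the 7.74% of all genes called lower. That gene, *CYP11A1*, which cleaves the cholesterol side chain, read 2.98, 2.59, 2.18 and 2.69 CPM in FBS and 0.173 to 0.414 (median 0.332) CPM with ligand (log2 fold change -3.09, SE 0.16, adjusted P = 4.34e-16). *AKR1C1* and *AKR1C3*, reductases of steroid ketones, had log2 fold changes of -0.08 (adjusted P = 0.754, 95% interval -0.53 to 0.36) and -0.22 (adjusted P = 0.308, 95% interval -0.60 to 0.16), and the close similarity of *AKR1C1* to other members of its family leaves its counts uncertain.

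Several of the largest falls lay outside these lists. *TARP*, a transcript of the T cell receptor gamma locus made in prostate cells, read 18.7, 20.7, 21.1 and 26.2 CPM in FBS and 0.285 to 0.796 (median 0.637) CPM with ligand (log2 fold change -5.25, SE 0.14, adjusted P = 1.03e-22). The antisense RNA *POTEH-AS1* fell (log2 fold change -4.91, SE 0.33, adjusted P = 1.87e-13), as did *ADH1C*, an alcohol dehydrogenase with near-identical paralogs (log2 fold change -4.61, SE 0.23, adjusted P = 1.23e-16). The pseudogenes *NUDT4P1* and *TRIM49D2P* fell by 6.04 and 4.00 on the log2 scale with SE of 1.17 and 0.39, and reads shared with their parent families make both uncertain. *NUDT4P1* ranged from 6.45 to 25.9 CPM among the FBS libraries. In CSS, *TARP* averaged 0.745 CPM and *ADH1C* averaged 0.391 CPM, and their differences from CSS had adjusted P = 0.0741 and 0.0717.

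Genes of DNA replication and of mitosis were lower with either ligand than in FBS almost throughout the lists. Of 40 genes of the G1/S transition and replication, 33 were DEGs lower and 0 were higher (median -1.41), against 7.74% and 7.97% of all genes. Of 35 genes of G2 and mitosis, all 35 were DEGs lower (median -1.68), and their libraries did not overlap, as was the case in this direction for 15.7% of all genes. In these bulk samples, fewer dividing cells and less of each RNA per cell cannot be told apart. *GINS2*, a subunit of the replicative helicase complex, read 71.3, 83.9, 73.8 and 105 CPM in FBS and 14.9 to 21.7 (median 17.0) CPM with ligand (log2 fold change -2.26, SE 0.10, adjusted P = 1.13e-17). *CDC45*, which joins the same helicase, read 64.4, 70.4, 53.9 and 60.7 CPM in FBS and 13.2 to 18.1 (median 16.8) CPM with ligand (log2 fold change -1.99, SE 0.06, adjusted P = 7.04e-22). *PCNA*, the sliding clamp of DNA polymerase, fell 3.45-fold (adjusted P = 1.45e-14), and *MCM2*, a helicase subunit, fell 2.45-fold (adjusted P = 2.25e-15). *TTK*, a kinase of the spindle checkpoint, read 62.3, 79.5, 81.9 and 102 CPM in FBS and 13.2 to 24.8 (median 15.4) CPM with ligand (log2 fold change -2.34, SE 0.13, adjusted P = 9.96e-16). *HMMR*, which binds hyaluronan and the mitotic spindle, read 191, 264, 315 and 381 CPM in FBS and 49.2 to 109 (median 55.4) CPM with ligand (log2 fold change -2.17, SE 0.14, adjusted P = 4.68e-14). *MKI67*, the proliferation antigen Ki-67, changed by -1.40 (adjusted P = 2.10e-08), and *CCNB1*, the mitotic cyclin B1, by -1.38 (adjusted P = 2.99e-11).

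These genes were low in CSS without ligand too. Against FBS, CSS had a median of -1.41 for the replication list (35 lower) and -1.31 for the mitosis list (32 lower), against 4.91% of all genes. The ligands against CSS had medians of -0.06 and -0.34 with 0 DEGs in either list, where 5.45% of all genes were higher and 3.40% lower. Thus *GINS2* averaged 18.9 ± 1.72 CPM in CSS, 16.8 ± 1.51 CPM with EGF, and 18.0 ± 2.67 CPM with NRG-1 (SD, n = 4 each). *TTK* averaged 26.0 ± 2.45, 14.5 ± 1.77, and 17.8 ± 4.64 CPM, and its difference from CSS of -0.70 passed the edgeR threshold (adjusted P = 4.09e-05) without reaching the fold limit. The G1 regulators *CCND1* and *MYC* went the other way. *CCND1*, which encodes cyclin D1, had a log2 fold change of 0.67 against FBS (adjusted P = 2.49e-07), and *MYC* read 281, 267, 266 and 223 CPM in FBS and 382 to 433 (median 412) CPM with ligand (log2 fold change 0.66, adjusted P = 3.99e-13), both under the fold limit.

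Few genes of cholesterol synthesis and export were DEGs. Among 24 cholesterol synthesis genes, 1 was a DEG higher and 1 lower, against 7.97% and 7.74% of all genes, with a median of -0.27. At the adjusted P value alone, 6 were higher and 13 lower, against 32.3% of all genes in each direction. *ACAT2*, which joins acetyl-CoA units at the entry to the pathway, read 109, 118, 114 and 135 CPM in FBS and 40.7 to 60.2 (median 45.8) CPM with ligand (log2 fold change -1.35, SE 0.08, adjusted P = 6.24e-15). *STARD4*, a sterol carrier, read 10.1, 11.9, 13.2 and 13.9 CPM in FBS and 20.6 to 42.0 (median 25.3) CPM with ligand (log2 fold change 1.14, SE 0.13, adjusted P = 1.13e-08), and its CSS mean was 11.5 CPM. Of 9 genes of cholesterol export, *ABCA1*, the exporter itself, was the 1 DEG, against 15.7% of all genes. It read 0.751, 0.780, 0.686 and 0.353 CPM in FBS and 5.48 to 7.95 (median 7.08) CPM with ligand (log2 fold change 3.38, SE 0.16, adjusted P = 8.85e-17), with a CSS mean of 4.50 CPM, so that most of the distance from FBS was already present without ligand.

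Among 18 fatty acid genes, 4 were DEGs lower and 1 was higher (median -0.49), against 7.74% and 7.97% of all genes. By the adjusted P value alone, 12 were lower and 3 higher, against 32.3% of all genes in each direction. *ELOVL7*, a fatty acid elongase, read 38.2 to 51.7 CPM in FBS and 8.95 to 12.0 (median 10.3) CPM with ligand (log2 fold change -2.10, SE 0.05, adjusted P = 7.99e-24), and the lipogenic regulator *THRSP* fell by 2.03 on the log2 scale (SE 0.22). *PNPLA3*, a lipase, rose by a log2 fold change of 1.04 (adjusted P = 4.28e-10). This was 0.98 without FBS replicate 3 and 0.94 in batch 1 alone, below the fold limit. *FASN*, the fatty acid synthase, overlapped between the groups (log2 fold change -0.19, adjusted P = 0.223). Of 17 targets of lipophilic hormones and the aryl hydrocarbon receptor, 2 were DEGs higher and 4 lower (median -0.02), against 7.97% and 7.74% of all genes. *TSC22D3*, a glucocorticoid- and androgen-induced leucine zipper protein, read 48.1, 63.8, 55.0 and 56.2 CPM in FBS and 10.6 to 18.7 (median 13.5) CPM with ligand (log2 fold change -2.01, SE 0.09, adjusted P = 3.98e-18), whereas its CSS mean was 63.2 ± 6.34 CPM. *CYP1A1*, a detoxifying oxidase, fell (log2 fold change -1.76, SE 0.23, adjusted P = 9.66e-08), and *AHRR*, the repressor of its activator, rose (log2 fold change 1.49, SE 0.22, adjusted P = 1.07e-06). *CYP26A1*, which degrades retinoic acid, held 36 counts with ligand and 2 in FBS, a ratio of 9.09 with a counting interval of 2.34 to 77.9, and was not called in batch 2 alone (adjusted P = 0.316).

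**Figure D3:**
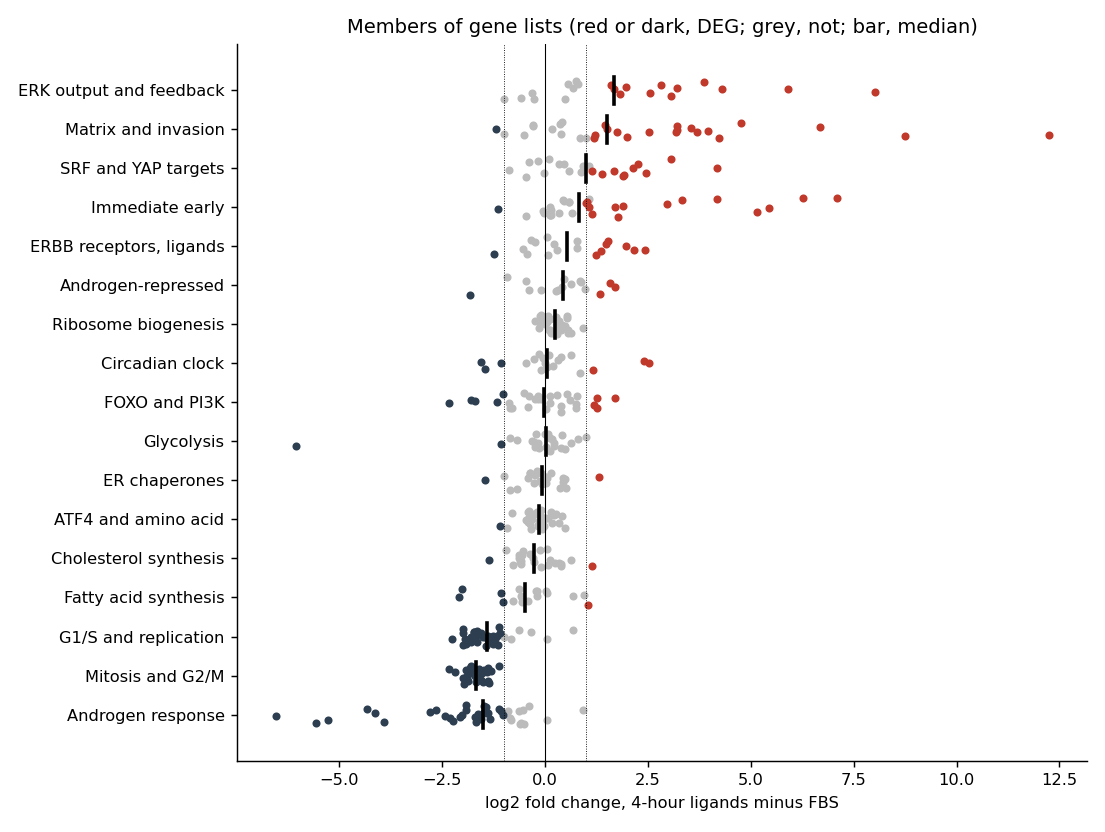
Each point is a tested gene of 1 list, at its log2 fold change of the 4-hour ligands minus FBS (x axis), with DEGs in red or dark, the other genes in grey, the list median as a bar, and dotted lines at the fold limit. The order of the lists is not that of their medians. ERK output and feedback, at the top, has a median of 1.68, androgen response, at the bottom, has one of -1.51, and the mitosis list, with a median of -1.68, lies wholly below the lower limit.

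A number of immediate early and feedback genes of the ERK pathway were above FBS after 4 hours of either ligand, and other members of both lists were not. *EGR1*, an immediate early zinc finger factor, read 1.48, 1.52, 1.37 and 1.28 CPM in FBS, 632, 656, 490.4 and 474 CPM with EGF, and 59.8, 59.3, 79.2 and 64.6 CPM with NRG-1, with the ligands apart from FBS and from each other. Its rise over FBS was 136-fold (log2 fold change 7.09, SE 0.41, adjusted P = 5.07e-15). *FOS* read 0.525, 0.621, 0.424 and 0.487 CPM in FBS, 31.2, 32.3, 35.2 and 34.0 CPM with EGF, and 8.59, 10.3, 23.1 and 21.5 CPM with NRG-1 (log2 fold change 5.45, SE 0.35, adjusted P = 4.16e-14). *EGR2* rose as well (log2 fold change 6.28, SE 0.49, adjusted P = 4.04e-12). *JUNB* had a log2 fold change of 1.89 (SE 0.12), and *EGR3* one of 5.14 (SE 0.19). Of 30 immediate early genes, 14 were DEGs higher and 1 was lower (median 0.83), against 7.97% and 7.74% of all genes. That 1 was *ATF3*, a stress-induced factor, which read 73.0, 90.9, 59.7 and 61.3 CPM in FBS and 25.1 to 48.5 (median 29.4) CPM with ligand (log2 fold change -1.15, SE 0.14, adjusted P = 3.74e-08) and reached -0.67 in batch 2 alone. *NR4A1*, an early orphan nuclear receptor, overlapped between the groups (log2 fold change 0.13, adjusted P = 0.197).

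Of 21 genes of ERK output and feedback, 12 were DEGs higher and 0 were lower (7.97% and 7.74% of all genes), with a median of 1.68. At the adjusted P value alone, 17 were higher and 4 were lower, against 32.3% of all genes in each direction. *DUSP6*, the cytoplasmic ERK phosphatase, read 0.382, 0.419, 0.212 and 0.319 CPM in FBS, 31.7, 30.9, 22.9 and 23.5 CPM with EGF, and 14.0, 15.0, 14.4 and 14.7 CPM with NRG-1 (log2 fold change 5.90, SE 0.15, adjusted P = 6.43e-23). *ETV4*, an ETS factor, read 0.0477, 0.0145, 0.0623 and 0.0336 CPM in FBS, 10.5, 10.9, 11.7 and 10.7 CPM with EGF, and 10.7, 10.5, 11.8 and 11.0 CPM with NRG-1. The ligand libraries agreed within a narrow range, and the rise over FBS was 258-fold (log2 fold change 8.01, SE 0.25, adjusted P = 4.30e-21). Its relative *ETV5* rose by 3.87 (SE 0.18), and *SPRY4*, an inhibitor of receptor tyrosine kinase signalling, by 4.30 (SE 0.22). In CSS, these genes stood near FBS on the scale of the ligand change, with *DUSP6* at 0.717 ± 0.101 CPM and *ETV4* at 0.0704 ± 0.0342 CPM. The ligands differed from CSS by 4.79 for *DUSP6* (adjusted P = 2.43e-21) and by 7.26 for *ETV4* (adjusted P = 2.91e-20).

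Secreted proteases held the 2 largest rises among the genes named by rule. *MMP1*, an interstitial collagenase, had 0 counts in all 4 FBS libraries and 2.90 to 19.1 (median 6.99) CPM with ligand. Against 3 counts over the FBS libraries, it was at least 951-fold higher, and the lower end of the counting interval used for the other low genes was 773-fold. *MMP10*, or stromelysin 2, read 0.274, 0.390, 0.224 and 0.454 CPM in FBS, 277, 292, 122 and 154 CPM with EGF, and 118, 116, 65.4 and 90.5 CPM with NRG-1, a rise of 433-fold (log2 fold change 8.76, SE 0.31, adjusted P = 7.78e-20). *MMP7*, or matrilysin, read 1.22, 1.85, 2.16 and 2.18 CPM in FBS and 15.3 to 27.1 (median 21.7) CPM with ligand (log2 fold change 3.55, SE 0.16, adjusted P = 8.03e-18), and *MMP13*, another collagenase, rose by 3.70 (SE 0.27). *TIMP1*, which inhibits these proteases, had 4 counts over the FBS libraries and 925 with ligand, a ratio of 117 with a counting interval of 45.5 to 430. The laminin chain gene *LAMB3* read 0.727, 0.593, 0.648 and 0.840 CPM in FBS and 3.55 to 9.32 (median 6.50) CPM with ligand (log2 fold change 3.22, SE 0.20, adjusted P = 3.04e-14). Of 29 matrix and invasion genes, 18 were DEGs higher and 1 was lower (median 1.52), against 7.97% and 7.74% of all genes. *PLAUR*, the urokinase receptor, was the lower one (log2 fold change -1.18, SE 0.28, adjusted P = 0.000661), and it was not called in batch 2 alone (adjusted P = 0.0908). The ligands against CSS gave a median of 1.54 for this list, with 15 higher, against 5.45% of all genes.

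Of 22 targets of SRF and YAP, regulators of cytoskeletal and contact genes, 10 were DEGs higher and 0 were lower (median 1.00), against 7.97% and 7.74% of all genes. At the adjusted P value alone, 15 were higher and 3 lower, against 32.3% of all genes in each direction. *FLNA*, an actin cross-linker, read 306, 241, 231 and 190.1 CPM in FBS and 728 to 1428 (median 1089) CPM with ligand (log2 fold change 2.14, SE 0.14, adjusted P = 6.31e-14). *VCL*, or vinculin, read 187, 158, 157 and 125 CPM in FBS and 435 to 737 (median 565) CPM with ligand (log2 fold change 1.89, SE 0.11, adjusted P = 1.04e-14). *FHL2*, a LIM-domain coactivator, read 0.227, 0.159, 0.150 and 0.151 CPM in FBS and 1.04 to 3.00 (median 1.21) CPM with ligand (log2 fold change 3.06, SE 0.28, adjusted P = 9.51e-11). *CNN1*, a smooth muscle calponin, had 1 count in FBS and 52 with ligand (ratio 26.3, counting interval 4.51 to 1057). The luminal keratins *KRT8* and *KRT18* rose together, *KRT8* from 476, 416, 379 and 394 CPM in FBS to 1128 to 1742 (median 1464) CPM with ligand (log2 fold change 1.79, SE 0.07, adjusted P = 1.25e-19) and *KRT18* by 1.09 (SE 0.06). CSS stood with FBS for both keratins, at 499 and 350.5 CPM. Of the 9 luminal markers, these 2 were DEGs higher and 1, *KLK3*, was lower, against 7.97% and 7.74% of all genes. At the adjusted P value alone, 6 were higher and 3 lower, against 32.3% of all genes in each direction.

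*ERBB2* and *EGFR* were both higher with the ligands than in FBS, and *ERBB3* was not. *ERBB2* read 183, 162, 151 and 134 CPM in FBS and 287 to 477 (median 426) CPM with ligand, with no overlap, a 2.58-fold rise (log2 fold change 1.37, SE 0.09, adjusted P = 1.39e-13). In CSS it averaged 258 ± 30.1 CPM, between the groups, so that CSS differed from FBS by 0.71 (adjusted P = 7.54e-07) and the ligands from CSS by 0.66 (adjusted P = 3.33e-07). *EGFR* read 39.1, 30.3, 29.2 and 17.0 CPM in FBS and 51.9 to 101 (median 78.8) CPM with ligand (log2 fold change 1.47, SE 0.14, adjusted P = 2.23e-10), and its CSS mean was 30.4 CPM (log2 fold change of CSS minus FBS 0.08, adjusted P = 0.666). *ERBB3*, which encodes HER3, read 213, 183, 187 and 175 CPM in FBS and 139 to 192 (median 159) CPM with ligand, which overlapped (log2 fold change -0.25, adjusted P = 0.0122, 95% interval -0.42 to -0.07). Of the 18 receptor and ligand genes tested, 7 were higher and 1 lower (median 0.53), against 7.97% and 7.74% of all genes. *HBEGF*, a ligand of EGFR, read 5.53, 5.20, 4.33 and 4.13 CPM in FBS, 40.5, 39.0, 30.3 and 28.7 CPM with EGF, and 21.7, 21.9, 18.3 and 15.9 CPM with NRG-1 (log2 fold change 2.43, SE 0.08, adjusted P = 3.23e-21). *AREG*, another EGFR ligand, rose (log2 fold change 2.17, SE 0.28, adjusted P = 8.66e-08), whereas *NRG4*, a ligand of HER4, fell (log2 fold change -1.23, SE 0.16, adjusted P = 1.98e-07).

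Further rises of the largest size lay outside the lists. *TGFB1*, which encodes the growth factor TGF-beta 1, read 0.0358, 0.0578, 0.0249 and 0.0168 CPM in FBS and 5.39 to 8.18 (median 6.50) CPM with ligand (log2 fold change 7.55, SE 0.25, adjusted P = 1.31e-20). *IGF2BP2*, an RNA-binding protein, read 0.0477, 0.0867, 0.0748 and 0.0840 CPM in FBS and 4.50 to 14.2 (median 7.89) CPM with ligand (log2 fold change 6.87, SE 0.18, adjusted P = 8.86e-23). *LEPREL2*, a collagen prolyl hydroxylase, rose (log2 fold change 7.24, SE 0.31, adjusted P = 3.57e-18). *NXPE1*, *KCNF1*, and *PDE1B* had at most 3 counts in each FBS library, so that their ratios carry wide counting intervals. *NXPE1* was 252-fold higher (98.1 to 925), the potassium channel gene *KCNF1* was 251-fold higher (107 to 773), and the cyclic nucleotide phosphodiesterase *PDE1B* was 158-fold higher (76.4 to 393). The CSS mean was 0.294 CPM for *NXPE1*, against 0 to 0.0289 CPM in FBS, and 0.0278 CPM for *PDE1B*.

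Some genes stood in CSS near or above their FBS levels and fell with the ligands. *BMF*, which encodes a BH3-only promoter of apoptosis, read 13.6, 12.8, 9.11 and 8.69 CPM in FBS, 17.6, 17.2, 17.4 and 15.3 CPM in CSS, and 1.35 to 3.21 (median 2.22) CPM with ligand (log2 fold change -2.32, SE 0.10, adjusted P = 9.85e-18 against FBS). Against CSS the difference was -2.94 (adjusted P = 1.33e-19). *KLF15*, a metabolic zinc finger factor, read 13.2, 11.4, 15.1 and 14.1 CPM in FBS and 2.55 to 5.94 (median 3.64) CPM with ligand (log2 fold change -1.79, SE 0.10, adjusted P = 1.04e-15), with 11.0 CPM in CSS. Of 30 genes tied to PI3K and FOXO, 4 were higher and 5 lower (median -0.03), against 7.97% and 7.74% of all genes, so that members were called in both directions. *IRS1*, the insulin receptor substrate, read 8.21, 5.58, 6.79 and 4.29 CPM in FBS and 14.2 to 27.6 (median 20.0) CPM with ligand (log2 fold change 1.71, SE 0.16, adjusted P = 1.52e-10), and the transcriptional repressor *BCL6* rose (log2 fold change 1.26, SE 0.07, adjusted P = 9.61e-15). *SESN3*, an inhibitor of mTORC1 activity, rose against FBS (log2 fold change 1.20, SE 0.06, adjusted P = 1.37e-16), yet differed from CSS by -0.34 (adjusted P = 6.89e-06), since its CSS mean was 425 CPM. *TXNIP*, an inhibitor of glucose uptake, was at 347, 377, 257 and 257 CPM in FBS, 511, 547, 388 and 408 CPM in CSS, and 218 to 344 (median 273) CPM with ligand (log2 fold change against FBS -0.16, adjusted P = 0.0206; against CSS -0.75, adjusted P = 1.68e-11).

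Of 19 genes of the circadian clock, 3 were higher and 3 lower, against 7.97% and 7.74% of all genes, with a median of 0.06. *NPAS2*, a partner of BMAL1, read 3.64, 2.89, 2.87 and 2.66 CPM in FBS and 11.1 to 20.5 (median 16.1) CPM with ligand (log2 fold change 2.40, SE 0.10, adjusted P = 1.62e-18), and the repressor *BHLHE41* rose (log2 fold change 2.53, SE 0.14, adjusted P = 2.43e-15). *ARNTL*, which encodes BMAL1, read 9.86, 11.0, 9.76 and 10.6 CPM in FBS and 2.96 to 4.82 (median 3.91) CPM with ligand (log2 fold change -1.44, SE 0.08, adjusted P = 9.07e-16), and its target *DBP* read 11.3, 10.7, 9.41 and 10.1 CPM in FBS and 3.13 to 4.40 (median 3.48) CPM with ligand (log2 fold change -1.55, SE 0.08, adjusted P = 9.25e-17). Libraries of FBS and of the ligands did not overlap for any of these 4 genes, which were picked as the largest DEGs of the list. Over all 19 genes, 4 did not overlap with the ligands higher and 4 with the ligands lower, against 17.3% and 15.7% of all genes.

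Ribosome biogenesis held 0 DEGs among 34 genes, against 15.7% of all genes, with a median of 0.25. At the adjusted P value alone, 23 were higher and 2 lower, against 32.3% of all genes in each direction. Among 36 targets of ATF4 and amino acid supply, 7 were higher and 19 lower at the adjusted P value alone, against the same share. As DEGs, 0 were higher and 1 was lower (median -0.15), against 7.97% and 7.74% of all genes. The lower DEG, *CHAC1*, a glutathione-degrading enzyme, had a log2 fold change of -1.09 (adjusted P = 1.29e-09), which was -0.97 without FBS replicate 2 and -0.71 in batch 2 alone. Endoplasmic reticulum genes held 1 DEG higher and 1 lower of 25 (median -0.06), near the 7.97% and 7.74% of all genes. At the adjusted P value alone, 7 were higher and 10 lower, against 32.3% of all genes in each direction. *KDELR3*, a retrieval receptor, rose 2.47-fold (adjusted P = 1.22e-14), and *CREB3L4*, a membrane-bound factor high in prostate, read 123, 129, 124 and 146 CPM in FBS and 43.0 to 53.7 (median 47.0) CPM with ligand (log2 fold change -1.46, SE 0.05, adjusted P = 3.19e-21). Glycolysis held 0 DEGs higher and 2 lower of 25 (median 0.04), against 7.97% and 7.74% of all genes. At the adjusted P value alone, 9 were higher and 10 lower, against 32.3% of all genes in each direction. *SLC2A3*, a glucose transporter, had 98 counts in FBS and 2 with ligand, so that it was 97.0-fold lower (counting interval 26.1 to 812), and *SLC2A12*, another transporter, fell by 1.06 on the log2 scale (SE 0.06), which was -0.91 in batch 2 alone.

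The NF-kB and chemokine list held 1 higher and 1 lower of 14 (median 0.36), near the 7.97% and 7.74% of all genes. *RELB*, a subunit of the factor, read 1.03, 0.665, 0.735 and 0.958 CPM in FBS and 3.80 to 7.23 (median 5.17) CPM with ligand (log2 fold change 2.65, SE 0.15, adjusted P = 2.04e-15). *CXCL8*, a neutrophil chemokine, lay at 0.155 to 0.405 CPM in FBS and up to 0.176 CPM with ligand, with overlap (log2 fold change -1.29, SE 0.38, adjusted P = 0.00444), and it was not called in batch 2 alone (adjusted P = 0.0710). BMP and TGF-beta target genes held 4 higher and 0 lower of 14 (median 0.38), against the same shares. *ID1*, an inhibitor of helix-loop-helix factors, read 7.28, 4.97, 6.97 and 6.67 CPM in FBS and 23.2 to 45.5 (median 32.6) CPM with ligand (log2 fold change 2.33, SE 0.18, adjusted P = 4.79e-12), and *BMP2*, with 2 counts in FBS and 30 with ligand, had a ratio of 7.58 (counting interval 1.92 to 65.4) and an adjusted P of 0.177 in batch 1 alone. Neuroendocrine markers held 4 higher and 3 lower of 12 (median -0.41), also against these shares, while *CHGA* and *INSM1* were among those that did not pass the filter. *STMN1*, a tubulin-binding protein that also marks division, read 240.2, 311, 336 and 462 CPM in FBS and 94.2 to 169 (median 104) CPM with ligand (log2 fold change -1.55, SE 0.11, adjusted P = 3.51e-13), *NCAM1* fell (log2 fold change -1.48, SE 0.17, adjusted P = 1.09e-08), *NTS* rose with overlap between the groups (log2 fold change 1.77, SE 0.40, adjusted P = 0.000356), and *CHGB* had 1 count in FBS and 41 with ligand (ratio 20.7, counting interval 3.51 to 838).

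Markers of other cell types were at low levels and were called in part. Of 2 basal markers tested 1 was a DEG higher and 1 lower, of 5 fibroblast markers 2 were higher and 0 lower, and of 4 immune and endothelial markers 1 was higher and 0 lower, against 7.97% and 7.74% of all genes. At the adjusted P value alone, 1 fibroblast marker (*LUM*, log2 fold change -0.90) and 1 endothelial marker (*VWF*, -0.80), both named after their values were seen, were lower. *KRT14*, a basal keratin, read 1.87, 1.85, 1.25 and 0.958 CPM in FBS and 0.0153 to 0.227 (median 0.0652) CPM with ligand (log2 fold change -4.22, SE 0.25, adjusted P = 6.21e-15). *KRT15* had 5 counts in FBS and 46 with ligand (ratio 4.65, counting interval 1.85 to 15.0). Its adjusted P of 0.0123 became 0.0522 without FBS replicate 2, and its call was lost in 5 of the alternative settings. *PDGFRA*, a mesenchymal receptor, had 1 count in FBS and 142 with ligand (ratio 71.7, counting interval 12.7 to 2853). *COL3A1*, a fibrillar collagen gene, overlapped between the groups (log2 fold change 1.16, SE 0.11, adjusted P = 4.15e-10), and its CSS mean of 2.41 CPM was at the ligand level. *CD68*, a lysosomal protein used as a macrophage marker and also made in epithelial cells, read 2.30, 2.46, 3.52 and 3.41 CPM in FBS and 7.80 to 16.8 (median 11.3) CPM with ligand (log2 fold change 1.99, SE 0.13, adjusted P = 4.98e-14).

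EGF against FBS gave 2792 DEGs (16.4%, with 1401 higher, 8.24%, and 1391 lower, 8.18%), and NRG-1 against FBS gave 2449 (14.4%, with 1267 higher, 7.46%, and 1182 lower, 6.95%). Both comparisons use the same FBS libraries. Of the 2669 DEGs of the pooled comparison, 2206 were called the same way for each ligand. The pooled difference is the mean of both ligand differences, so that this agreement is in part built in. When the ligands were tested directly against each other at 4 hours, 29 of 16995 genes (0.171%) were DEGs, 25 higher with EGF (0.147%) and 4 higher with NRG-1 (0.0235%). Of the 29, 22 were also DEGs of the pooled comparison, against 15.7% of all genes. Both tests use the same ligand libraries, so that this overlap is not independent. The androgen-response list had medians of -1.52 with EGF and -1.53 with NRG-1 against FBS. The replication and mitosis lists had medians against FBS of -1.38 and -1.74 for EGF and of -1.44 and -1.65 for NRG-1. Each of these lists had 0 DEGs between the ligands, near the 0.171% of all genes. Of the 30 immediate early genes, 8 were higher with EGF than with NRG-1, as were 3 of the 29 matrix genes, against 0.147% of all genes. *EGR1* differed by 3.10 (SE 0.33, adjusted P = 1.12e-06), *EGR3* by 2.09 (SE 0.13), *EGR2* by 1.44 (SE 0.25), *FOS* by 1.11 (SE 0.26), and *JUNB* by 1.06 (SE 0.12). *MMP1* differed by 1.78 (SE 0.23) and *MMP10* by 1.10 (SE 0.20). *ETV4* differed by -0.01 (95% interval -0.29 to 0.28) and *KLK3* by -0.08 (95% interval -0.30 to 0.14), and neither passed the test.

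**Figure D4:**
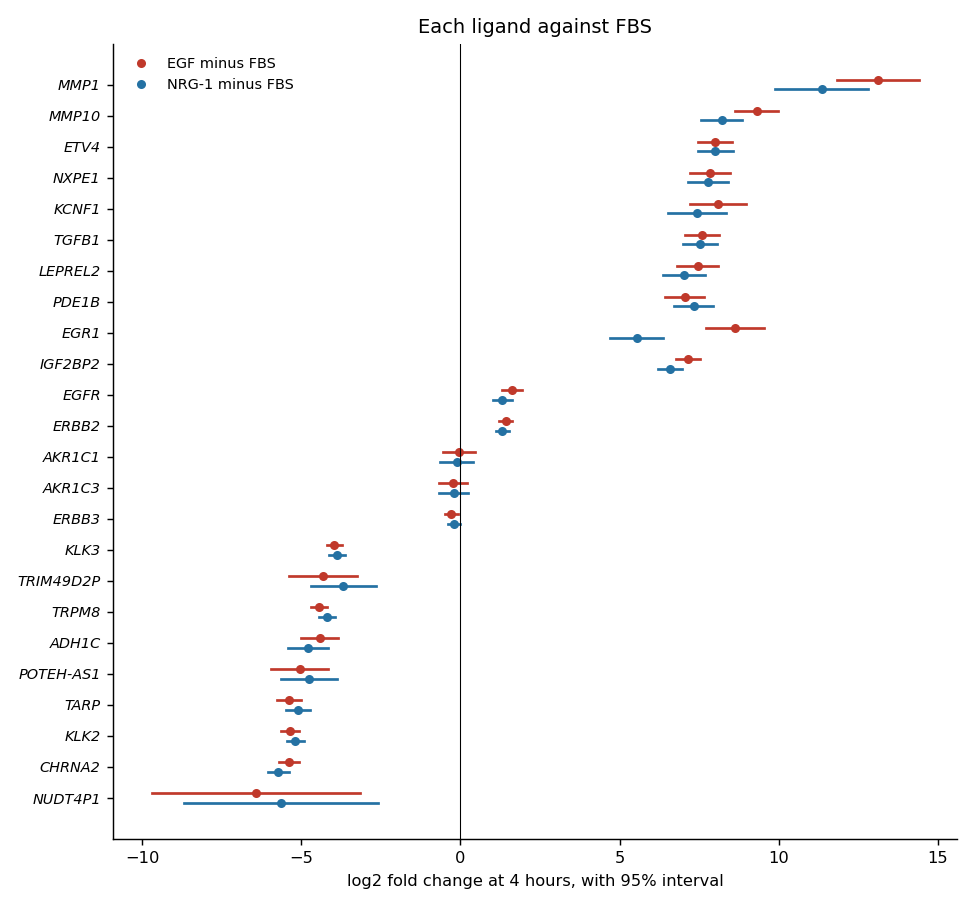
Log2 fold changes of EGF minus FBS (red) and NRG-1 minus FBS (blue) at 4 hours for 24 genes, with 95% intervals as bars (x axis). The intervals of both ligands lie on the same side of 0 for every gene except *AKR1C1*, *AKR1C3*, and *ERBB3*, and those of *EGR1* lie apart from each other. *MMP1* held 0 counts in FBS, so that its fitted values are not bounds.

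Levels at the earlier times place the 4-hour values between CSS and FBS or beyond them, and are given as means ± SD (n = 4) without a test between times. *KLK3* with EGF averaged 241 ± 39.6 CPM at 5 minutes, 218 ± 31.1 at 1 hour, and 139 ± 13.1 at 4 hours, and with NRG-1 223 ± 50.0, 229 ± 42.4, and 149.5 ± 31.8. All of these lay far below the FBS mean of 2145 ± 163. *BMF* averaged 12.7 ± 0.920 CPM at 1 hour and 1.77 ± 0.329 at 4 hours of EGF, passing from above its FBS mean of 11.1 ± 2.51 to below it. *EGR1* averaged 1316 ± 291 CPM at 1 hour of EGF and 1352 ± 257 at 1 hour of NRG-1, so that its 4-hour means of 563 ± 94.1 and 65.7 ± 9.28 lay below the 1-hour levels. *DUSP6* with EGF averaged 13.1 ± 0.900 CPM at 1 hour and 27.3 ± 4.68 at 4 hours, and with NRG-1 14.5 ± 1.09 and 14.5 ± 0.428. *ETV4* was still at 0.166 ± 0.0701 CPM at 1 hour of EGF and at 0.110 ± 0.0525 at 1 hour of NRG-1, before its 4-hour means of 11.0 ± 0.500 and 11.0 ± 0.585.

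**Figure D5:**
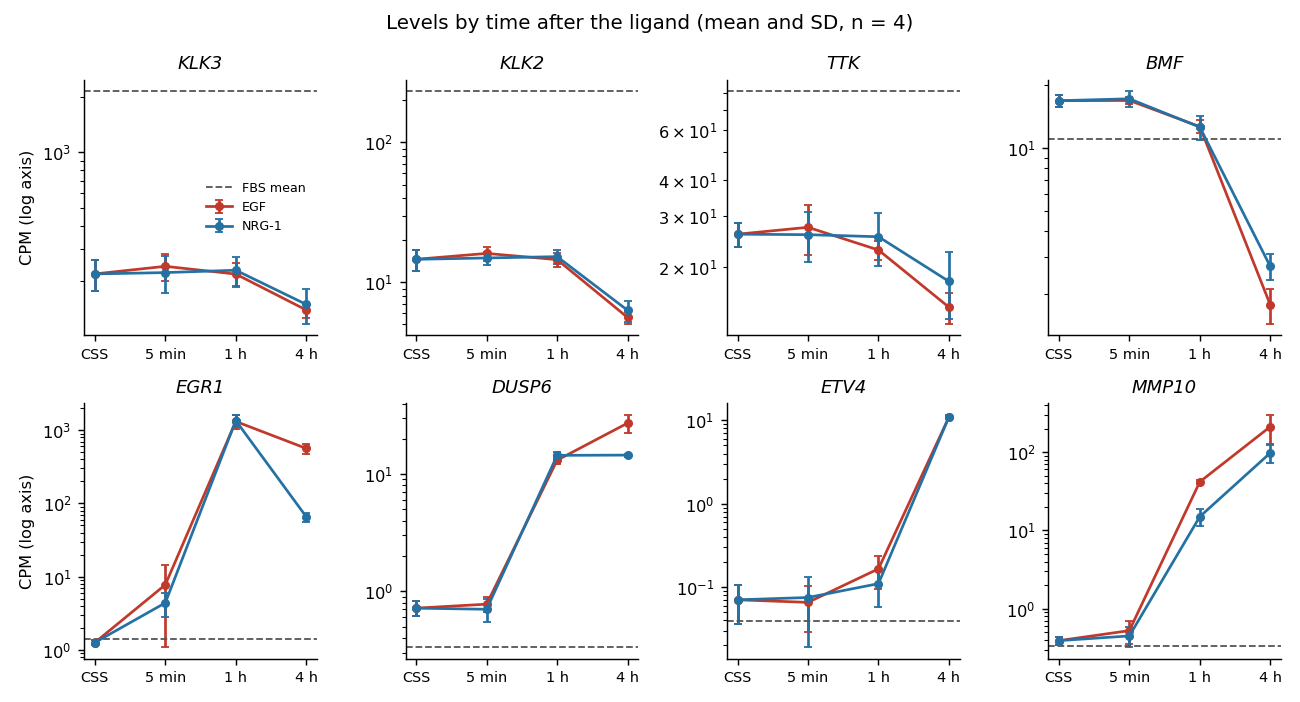
Mean levels in CSS and at 5 minutes, 1 hour, and 4 hours of EGF (red) or NRG-1 (blue) for 8 genes (CPM, log axis), with bars of 1 SD (n = 4) and the FBS mean as a dashed line. *KLK3*, *KLK2*, and *TTK* stay below the FBS line at every time, *BMF* crosses it between 1 hour and 4 hours, *EGR1* peaks at 1 hour, and *ETV4* is high at 4 hours alone.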

How the data were processed

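RNA was sequenced from polyadenylated, strand-specific libraries of LNCaP cells. The authors trimmed the reads and, with RSEM around STAR in stranded mode, deposited an expected count for each of 25498 genes and each library, which is not normalized. They also deposited TPM, which the authors' RSEM run scales for transcript length and library total. The submitters' processing notes name Trimmomatic 0.36, STAR 2.7.0f, RSEM, and hg19, and the annotation is not given in the sources used here. RSEM divides reads that match several genes between them, and 11.2% of the deposited values were not whole. Columns of values that matched no sample numbered 0.

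Expected counts were rounded. The filter asked for 5 or more counts in 3 or more libraries, which 16995 genes met, holding 99.9974% of the counts. All 32 libraries entered 1 edgeR 4.0.16 quasi-likelihood fit (R 4.3.3) with TMM scaling and terms for the group and the batch, so that all groups share 1 estimate of the spread. The mean of EGF and NRG-1 at 4 hours was contrasted with FBS. CSS minus FBS, the ligands minus CSS, each ligand minus FBS, and EGF minus NRG-1 came from the same fit. P values were adjusted by Benjamini-Hochberg over all genes within each contrast. Every adjusted P value in the text is from this fit unless another is named.

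Replicates 1 and 2 are those of batch 1, and replicates 3 and 4 are the label replicates 1 and 2 of batch 2. The labels call them biological replicates without saying what was separate, so that P values measure the spread between these libraries. Same-numbered libraries deviated together from their group means in 12 of 12 pairs (*r* 0.137 to 0.383), and within batches *r* was 0.0223 to 0.246. The labels give same-numbered libraries a shared batch and no other link, so that a pairing within the batches is not established. The main fit holds a batch term and no replicate term. Libraries of 1 group differed by more than sampling noise (chi-square per degree of freedom 6.60 to 262 over 18 pairs).

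The members and gene lists were chosen with earlier results of these data known. Genes named by rule were, to begin with, the 10 DEGs that rose most and the 10 that fell most, provided that their average over the 12 libraries was 1 log2 CPM or more, that both ligands moved them one way, and that ligand and FBS libraries did not overlap. Up to 2 DEGs in each direction of each list were added, and so were *AKR1C1*, *AKR1C3*, *EGFR*, *ERBB2*, *ERBB3*, *KLK2*, and *KLK3*, which the study names. This gave 81 genes, some of which are not reported here, and 24 further list members were named after their values were seen, namely *TMPRSS2*, *FKBP5*, *FOLH1*, *PCNA*, *MCM2*, *MKI67*, *CCNB1*, *FASN*, *FOS*, *EGR3*, *JUNB*, *MYC*, *CCND1*, *SPRY4*, *ETV5*, *MMP7*, *MMP13*, *TIMP1*, *LAMB3*, *FLNA*, *VCL*, *SESN3*, *TXNIP*, and *NR4A1*. *LUM* and *VWF*, too, were named after their values were seen, and the counts of named genes leave them out. For genes with 3 counts or fewer in every library of a group, the ratio of counts is given with a 95% interval, which covers counting error only. Promoters came from the RefSeq table, and genes that it does not hold are named only. The fits were tested on simulated data.

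The comparison was repeated with DESeq2 1.42.0 (Wald test, or its size factors within edgeR), with all genes or with those holding 10 or more counts in each library, without the batch, with a replicate block, on the 12 libraries alone, with the ligand libraries as 1 group, within each batch, without the fold limit, with limma 3.58.1 on log2-transformed TPM (pseudocounts 1 and 0.1), and without each library in turn.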

Additional observations from a re-analysis of the deposited data

Results flagged for a closer look

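Among 105 named genes, 7 differed between the ligands themselves as DEGs in the direct test of EGF minus NRG-1 at 4 hours (edgeR quasi-likelihood test). All 7 were higher with EGF. The log2 differences were 3.10 for *EGR1* (adjusted P = 1.12e-06), 2.09 for *EGR3* (adjusted P = 1.16e-11), 1.78 for *MMP1* (adjusted P = 8.63e-05), 1.44 for *EGR2* (adjusted P = 0.00112), 1.11 for *FOS* (adjusted P = 0.0194), 1.10 for *MMP10* (adjusted P = 0.00222), and 1.06 for *JUNB* (adjusted P = 5.40e-06). For these genes the pooled fold change against FBS is an average of 2 unequal values.

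Single libraries stood apart from the other 3 of their group in 20 of 315 gene and group combinations, by Dixon's criterion at the 95% level, which chance alone would give in about 16. In 6 of these the library held a single count where the others held 0. These were *SLC26A3* in replicate 3 of NRG-1 (0.0153 CPM), *SLC2A3* in replicate 3 of EGF (0.0126 CPM) and replicate 3 of NRG-1 (0.0153 CPM), *CNN1* in FBS replicate 2 (0.0145 CPM), *CHGB* in FBS replicate 2 (0.0145 CPM), and *PDGFRA* in FBS replicate 4 (0.0168 CPM).

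Among FBS libraries, *ADH1C* read 6.62 CPM in replicate 4 against 5.14 to 5.39 in the others, *NRG4* read 0.858 CPM in replicate 1 against 1.23 to 1.24, and *FHL2* read 0.227 CPM in replicate 1 against 0.150 to 0.159. Among EGF libraries, replicate 3 was high for *NRG4* (0.579 CPM against 0.385 to 0.410) and *CCND1* (515 CPM against 433 to 443) and low for *PCNA* (107 CPM against 129 to 132). Replicate 4 of EGF was low for *ABCA1* (6.11 CPM against 7.28 to 7.40) and high for *FOLH1* (1893 CPM against 1779 to 1798), and replicate 2 was high for *KRT15* (0.205 CPM against 0.0755 to 0.0855). Among NRG-1 libraries, replicate 1 was low for *KLK2* (4.67 CPM against 6.69 to 6.95) and high for *NCAM1* (0.307 CPM against 0.183 to 0.199). Replicate 3 of NRG-1 was low for *CDC45* (13.7 CPM against 16.7 to 17.1) and high for *KRT15* (0.0764 CPM against 0.0267 to 0.0306), and replicate 4 was high for *TTK* (24.8 CPM against 15.2 to 15.7). The cause of these gaps was not tested.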

How the results depend on the processing

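Of the 95 named genes that were DEGs, 70 were called in every alternative in which they were tested, and none of the named values changed direction among the called ones. The count of 2669 DEGs was 2653 with the DESeq2 Wald test, 2669 with DESeq2 size factors, 2813 with no filter, 2625 with no batch term, 2630 with the 12 libraries alone, and 2629 with the ligand libraries as 1 group. The replicate block gave 2684, and it changed no call of a named gene. Leaving out each library gave 2541 to 2755. Without the fold limit the counts were 10971 in all (5483 higher and 5488 lower), 10613 for EGF, and 9726 for NRG-1. With at least 10 counts in every library, which tests fewer genes and drops those absent from 1 group, they were 1589 (750 higher and 839 lower), 1749, and 1480. With limma on log2(TPM + 1), where the pseudocount shrinks changes of low genes, they were 1005 (564 higher and 441 lower), 1110, and 924, and with no filter 1011 (564 higher and 447 lower), 1115, and 928. With a pseudocount of 0.1 there were 1791 (1073 higher and 718 lower). Among the lists, the matrix genes called higher went from 18 to 10 under the stricter count filter and to 11 with limma on log2(TPM + 1), and the immediate early genes from 14 to 8 under that filter. The depth of at least 63822654 counts leaves the spread between libraries as the limit for all but the lowest genes, and those with a handful of counts in FBS have folds known only within wide counting intervals.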
